A study of Homo sapiens with 12 samples.

Results

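The HOX genes encode homeodomain transcription factors that lie side by side in 4 clusters, HOXA on chromosome 7, HOXB on chromosome 17, HOXC on chromosome 12 and HOXD on chromosome 2. Members were the gene-level transcript clusters whose only gene symbol was HOXA, HOXB, HOXC or HOXD followed by a number, so antisense and long noncoding RNAs were left out. A transcript cluster is the array's unit for a gene, and 25 of 67528 met the rule, or 25 of the 23781 with 1 gene symbol. They comprised 1 HOXA gene (HOXA2), 8 HOXB genes (HOXB1, HOXB2, HOXB5, HOXB6, HOXB7, HOXB8, HOXB9 and HOXB13), all 9 HOXC genes (HOXC4, HOXC5, HOXC6, HOXC8, HOXC9, HOXC10, HOXC11, HOXC12 and HOXC13) and 7 HOXD genes (HOXD1 and HOXD8 to HOXD13 in unbroken order). RefSeq lists 39 HOX genes. A further 5 transcript clusters carried a HOX symbol together with other symbols and were no members.

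The cells were SH-SY5Y, a human neuroblastoma line of sympathetic neuroblast character, grown in medium with 15% serum. Both groups were electroporated with a single pulse of 1100 V and 50 ms, the one with an siRNA against MATR3 and the other with a negative control siRNA, and total RNA was taken 48 h later. MATR3 (Matrin3) is a nuclear matrix protein that binds RNA and DNA and acts in splicing. Each group had 3 samples, hybridised to Human Transcriptome Array 2.0 arrays and summarised by the authors as log2 signals per gene and per exon or junction. The groups carry no other difference in the labels, and the electroporation is common to both.

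In the embryo, HOX genes are switched on in the order in which they lie along the chromosome, and low-numbered paralogs pattern the hindbrain while high-numbered paralogs pattern the trunk, limb and tail end. The combination that a cell keeps is a record of its position along the body axis, and in neural crest and its sympathetic derivatives it follows the level of the trunk from which the cells came. Polycomb proteins hold the unused part of a cluster silent, Trithorax proteins keep the used part active, retinoic acid opens the clusters from their low-numbered end, and TALE homeodomain proteins (PBX, MEIS and PKNOX) bind DNA together with HOX proteins.

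RefSeq promoter windows (GRCh38.p14, 300 bases across each gene start, most of them upstream) were at hand for 10 members and gave 9 distinct sequences, because HOXC4 and HOXC5 shared a window. The 4 windows of members that stood above background are shown first, as the promoters of the HOX genes seen at gene level in these cells, followed by those of HOXA2 and HOXB1, low-numbered members that did not stand above it. Capitals mark TGATNNAT, the letters of a joint HOX and PBX recognition motif, on either strand, and a window without capitals held no match.
HOXC4 and HOXC5, chr12:54016638-54016937, plus strand: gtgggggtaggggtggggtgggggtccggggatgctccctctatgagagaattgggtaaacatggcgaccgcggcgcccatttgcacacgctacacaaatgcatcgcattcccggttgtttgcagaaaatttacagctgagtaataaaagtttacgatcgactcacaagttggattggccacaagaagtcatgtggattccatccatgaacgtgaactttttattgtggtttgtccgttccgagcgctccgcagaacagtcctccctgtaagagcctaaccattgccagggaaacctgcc
HOXD8, chr2:176129455-176129754, plus strand: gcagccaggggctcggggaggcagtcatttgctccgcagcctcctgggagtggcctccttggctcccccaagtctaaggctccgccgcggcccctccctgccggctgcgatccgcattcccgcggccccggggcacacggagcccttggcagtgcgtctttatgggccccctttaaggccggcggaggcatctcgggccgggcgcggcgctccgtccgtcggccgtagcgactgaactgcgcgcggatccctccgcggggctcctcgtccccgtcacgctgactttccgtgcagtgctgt
HOXD10, chr2:176116528-176116827, plus strand: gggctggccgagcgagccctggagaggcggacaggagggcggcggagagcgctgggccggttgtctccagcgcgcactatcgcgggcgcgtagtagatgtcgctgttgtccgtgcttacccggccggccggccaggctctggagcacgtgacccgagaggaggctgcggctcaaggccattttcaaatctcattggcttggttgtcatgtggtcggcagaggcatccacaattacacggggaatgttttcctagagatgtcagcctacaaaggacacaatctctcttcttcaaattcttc
HOXD11, chr2:176107030-176107329, plus strand: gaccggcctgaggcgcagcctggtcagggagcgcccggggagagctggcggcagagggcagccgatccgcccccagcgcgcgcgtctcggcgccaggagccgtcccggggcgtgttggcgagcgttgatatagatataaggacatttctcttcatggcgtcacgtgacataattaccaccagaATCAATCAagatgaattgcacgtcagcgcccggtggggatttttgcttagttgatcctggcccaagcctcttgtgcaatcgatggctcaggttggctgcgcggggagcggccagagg
HOXA2, chr7:27102634-27102933, minus strand: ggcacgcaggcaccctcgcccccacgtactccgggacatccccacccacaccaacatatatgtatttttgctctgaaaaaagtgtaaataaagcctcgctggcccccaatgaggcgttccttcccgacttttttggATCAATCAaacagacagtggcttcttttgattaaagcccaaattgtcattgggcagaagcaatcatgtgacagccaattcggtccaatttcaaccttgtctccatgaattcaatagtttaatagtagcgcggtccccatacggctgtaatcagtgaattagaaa
HOXB1, chr17:48530962-48531261, minus strand: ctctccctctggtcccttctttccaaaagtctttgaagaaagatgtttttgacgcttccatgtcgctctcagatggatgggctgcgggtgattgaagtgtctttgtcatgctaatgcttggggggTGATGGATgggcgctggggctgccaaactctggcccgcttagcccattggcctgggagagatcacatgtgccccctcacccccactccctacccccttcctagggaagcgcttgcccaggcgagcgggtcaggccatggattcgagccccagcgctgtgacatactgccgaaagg

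The windows of HOXA2, HOXB1 and HOXD11 each held 1 match, so 3 of 9 distinct windows (33.3%) carried these letters, against 7.42% of 34796 RefSeq promoter windows of the same length. The window of HOXD1, another low-numbered member not above background, held 0 matches and is not shown. TATAAA was found in 1 of the 9, that of HOXD13, against 11.6% of all windows. The median GC content of the 9 windows was 60.0%, against 58.7% over all, and their median number of CpG dinucleotides was 23, against 14. A match describes the letters only.

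Background was read from the 23 background probe sets on the same arrays. A gene was counted as above background when its mean over the 3 control siRNA samples exceeded the highest of the 23 background means, a log2 signal of 6.96. That probe set and the next (6.72) are named for the lowest GC counts, the highest of those named GC18 to GC25 stood at 5.64, and the GC content of the HOX probes was not analysed here. Signals of different genes come from different probes, so each was set against background and not against another gene's.

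In control siRNA cells 5 of the 25 HOX genes (20.0%) stood above background, against 39.0% of the clusters with 1 symbol and 24.2% of all clusters. They were HOXC4 and HOXC6 in the HOXC cluster and HOXD8, HOXD10 and HOXD11 in the HOXD cluster. None of the 8 HOXB genes, nor HOXA2, stood above it. By paralog number, the 5 genes belonged to groups 4, 6, 8, 10 and 11, and in each of groups 6, 8, 10 and 11 at least 1 other paralog was measured and did not exceed the threshold. A total of 19 members lay between the median and the highest background probe set, and HOXB1 lay at or below the median.

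HOXC4, a cervical paralog, had log2 signals of 9.18, 8.51 and 8.45 in control siRNA replicates 1, 2 and 3. HOXC6 had 9.24, 8.62 and 8.64. In the HOXD cluster, HOXD8 had 7.76, 7.15 and 7.21. These 3 genes were highest in replicate 1 and close together in replicates 2 and 3. HOXD10, known for its role in lumbar motor neurons, had 9.07, 7.67 and 8.02. HOXD11, which acts in forearm and kidney development, had 7.75, 7.25 and 7.46. Replicate 1 was again the highest for both, by most for HOXD10.

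The threshold divided neighbouring values narrowly. HOXD8 lay just inside with a control mean of 7.37, while HOXD13 (6.88) and HOXC10 (6.86) lay just outside. HOXD13, the terminal limb and genital paralog, had 7.10, 6.75 and 6.80 in control siRNA, and HOXC10, a lumbar paralog, had 6.82, 6.90 and 6.86. Both pass when the second highest background mean is the threshold, which gives 7 members. When each control sample had to exceed the highest background probe set of its own array (8.75, 6.87 and 6.48), 3 members were left, HOXC4, HOXC6 and HOXD10.

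Among the HOXB genes the control means ran from 3.51 for HOXB1, a hindbrain paralog, to 5.65 for HOXB7. The signals of HOXB7 in control siRNA were 5.74, 5.58 and 5.64, those of HOXB9, a thoracic paralog, were 5.35, 4.99 and 4.92, and those of HOXB13, the terminal paralog known from prostate, were 4.2, 3.78 and 3.75. HOXA2, a hindbrain and branchial arch paralog, had 4.13, 3.69 and 3.90. All 12 of these values lay below the highest background mean. The control means of the 7 other HOXC members ran from 5.30 (HOXC11) to 6.86 (HOXC10), with HOXC5, HOXC8, HOXC9, HOXC12 and HOXC13 between. Of the 4 other HOXD members, HOXD12 had 4.32, HOXD1 4.80, HOXD9 5.74 and HOXD13 6.88. The 4 HOXB members not yet given, HOXB2, HOXB5, HOXB6 and HOXB8, had control means of 4.35, 4.29, 4.29 and 4.96.

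**Figure D1:**
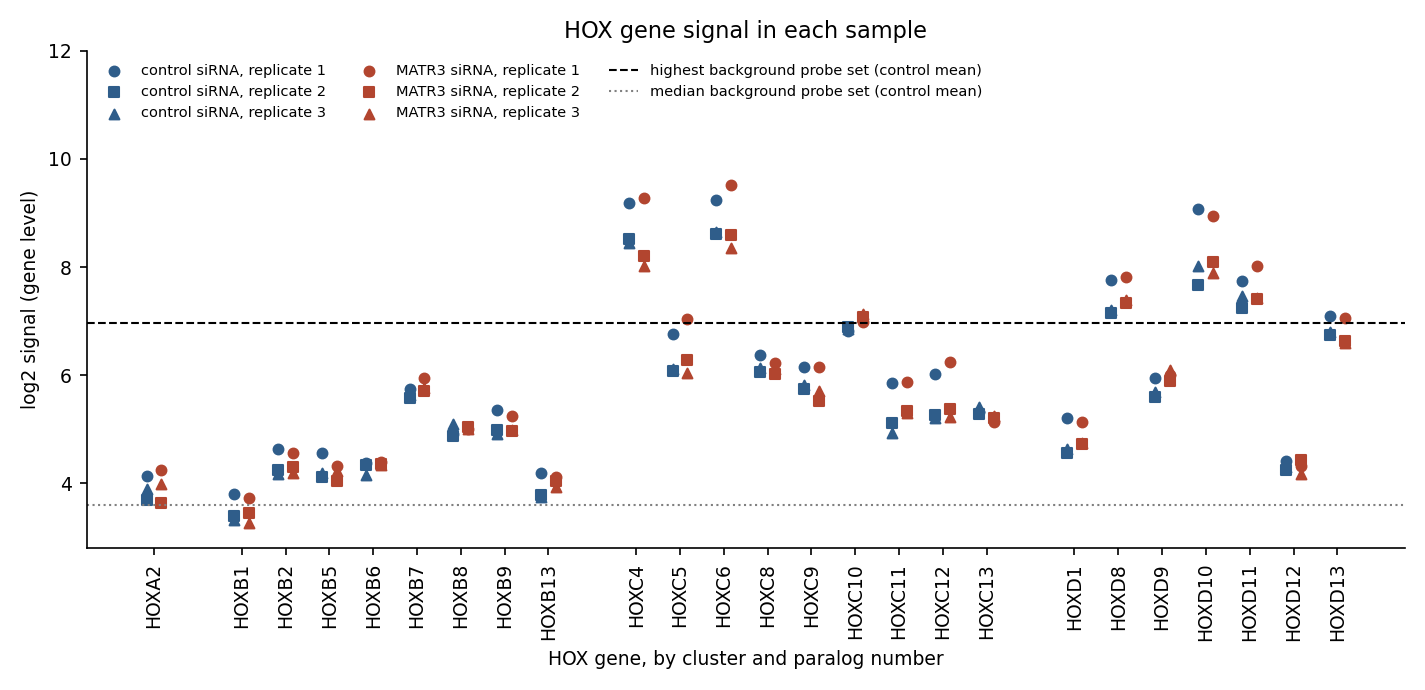
Gene-level log2 signal (vertical axis) of the 25 HOX genes, by cluster and paralog number, in the 3 control siRNA samples (blue) and the 3 MATR3 siRNA samples (red), with marker shape for the replicate number, a dashed line at the highest background probe set (6.96) and a dotted line at the median one. HOXC4, HOXC6, HOXD8, HOXD10 and HOXD11 stand above the dashed line in every control sample, and the HOXB genes and HOXA2 lie below it.

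Of the 5 clusters that share a HOX symbol with others, that of HOXC4, HOXC5 and HOXC6 together stood above background, at 8.31, 7.47 and 7.51 in control siRNA and 8.53, 7.35 and 7.33 in MATR3 siRNA. The cluster of MIR10B, HOXD3 and HOXD4 had a control mean of 6.40. The 3 with HOXA3 and HOXA6, with HOXA9 and MIR196B, and with MIR10A, HOXB3 and HOXB4 had 4.42, 4.39 and 4.59. Probes that serve several of these overlapping transcripts cannot be assigned to a single gene.

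Before the HOX genes were compared, the siRNA target was read. The cluster of MATR3, which it shares with SNHG4, had 11.21, 10.53 and 10.52 in MATR3 siRNA and 12.25, 11.75 and 11.68 in control siRNA. The difference was -1.14 ± 0.09 (SD of 3 replicate pairs), 45.4% of the control level, and all 3 MATR3 siRNA samples were below all 3 controls. With 3 samples against 3, an exact two-sided permutation test cannot give a p below 0.1. Of the marker lists, 9 of 10 sympathoadrenal genes on the array stood above background, as did 3 of 7 fibroblast or mesenchyme genes (TWIST1, PDGFRA and PDGFRB), 0 of 5 Schwann or melanocyte genes, 0 of 4 blood genes and 0 of 5 epithelial genes. Replicate 1 of both groups stood apart from replicates 2 and 3. Averaged over both groups, the median HOX member was 0.38 higher in replicate 1, as was the median of all clusters (0.38). The 5 HOX genes above background were higher by 0.50 to 1.09, with a median of 0.82. Clusters with 1 symbol above background had a median of 0.74.

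After MATR3 siRNA no HOX gene passed the test. In these bulk samples, fewer cells with a transcript and less of it per cell cannot be told apart. The linear model (limma, two-sided, no block, Benjamini-Hochberg adjustment) covered 33782 clusters with a mean over the 6 samples at or above the median, among them 17 of the 25 HOX genes, and called 0 of 33782 (0.0%), with 316 clusters at an unadjusted p below 0.05. The MATR3 cluster was among the 33782 and was not called either, so this model did not call the siRNA target itself. All 17 HOX genes had an adjusted p of 1. HOXA2, HOXB1, HOXB2, HOXB5, HOXB6, HOXB13, HOXD1 and HOXD12 did not reach the filter. Over the 25 members, differences (MATR3 siRNA minus control siRNA, mean of 3 pairs) ran from -0.21 to 0.26 with a median of 0.05, against a median of 0.06 over all clusters, and 15 members were above 0 and 10 below. None of the 25 differed by more than 0.5, against 2.82% of all clusters. The median over HOX members was 0.02, 0.11 and 0.03 in replicate pairs 1, 2 and 3.

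The 5 HOX genes above background had overlapping groups throughout. HOXC4 had 9.28, 8.20 and 8.02 in MATR3 siRNA, a difference of -0.21 ± 0.28 (SD, n = 3 pairs), lower in 2 of 3 pairs. HOXC6 had 9.51, 8.60 and 8.35, a difference of -0.01 ± 0.28, also lower in 2 of 3 pairs. For both, the pair of replicate 1 was above 0 and the pair of replicate 3 was the lowest. HOXD8 had 7.82, 7.34 and 7.39, a difference of 0.14 ± 0.07, higher in 3 of 3 pairs. HOXD10 had 8.95, 8.10 and 7.89, a difference of 0.06 ± 0.32, higher in 1 of 3 pairs. HOXD11 had 8.02, 7.41 and 7.42, a difference of 0.13 ± 0.16, higher in 2 of 3 pairs. HOXD8 alone of these 5 moved the same way in every pair.

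The width of the intervals shows what these arrays could resolve. In the model without block, the 95% confidence interval ran from -1.09 to 0.66 for HOXC4, from -0.82 to 0.79 for HOXC6, from -0.47 to 0.76 for HOXD8, from -0.92 to 1.04 for HOXD10 and from -0.49 to 0.74 for HOXD11. In a model over the 15209 tested clusters with 1 symbol that set replicate 1 of both groups apart from replicates 2 and 3 as a block, they narrowed to -0.49 to 0.06 for HOXC4, -0.29 to 0.26 for HOXC6, 0.01 to 0.28 for HOXD8, -0.23 to 0.35 for HOXD10 and -0.07 to 0.33 for HOXD11. That model called 530 clusters (3.48%) and 0 of the 17 HOX genes. No HOX gene was called either with replicate 1 as a block over all tested clusters (0.00296% called) or with a replicate block over clusters with 1 symbol (0.0526% called). In the model of 530 calls, the 5 genes had adjusted p from 0.195 for HOXD8 to 0.954 for HOXC6. A difference of -1.14, that of the MATR3 cluster, lay outside the 5 intervals of either model. That cluster has 2 symbols, so the model over clusters with 1 symbol did not cover it. Without block, the intervals of HOXC4 and HOXD10 reached past 1 log2 unit.

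Among the members not above background, HOXC10 and HOXC13 were the only ones whose groups did not overlap. That is 1 of 25 higher and 1 of 25 lower, against 3.12% of all clusters higher and 0.937% lower, or 4.05% either way. HOXC10 had 6.98, 7.08 and 7.13 in MATR3 siRNA against 6.82, 6.90 and 6.86 in control siRNA, a log2 difference of 0.20 ± 0.06 (adjusted p = 0.0881 in the blocked model of clusters with 1 symbol, limma). HOXC13, the hair and nail paralog, had 5.14, 5.20 and 5.24 against 5.31, 5.29 and 5.42, a difference of -0.15 ± 0.05 (adjusted p = 0.195 in the same model). Neither passed the test.

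HOXD9 had 6.01, 5.89 and 6.10 in MATR3 siRNA against 5.94, 5.59 and 5.68 in control siRNA, a difference of 0.26 ± 0.18, higher in 3 of 3 pairs. It was the only HOX gene called under any model run, in the model with array weights alone, where the difference was 0.40 (adjusted p = 0.0394, limma) and 9.45% of all tested clusters were called, 7.27% in the higher direction. Its signal was below the highest background mean in all 6 samples. HOXC11 had 5.88, 5.33 and 5.30 against 5.86, 5.11 and 4.93 (0.20 ± 0.18), and HOXC5 had 7.04, 6.28 and 6.04 against 6.77, 6.08 and 6.12 (0.13 ± 0.19). HOXD13 had 7.06, 6.64 and 6.60 in MATR3 siRNA, lower than control in 3 of 3 pairs, a difference of -0.12 ± 0.08. These 3 genes had overlapping groups.

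HOXB7 had 5.95, 5.71 and 5.76 in MATR3 siRNA, a difference of 0.15 ± 0.05, higher in 3 of 3 pairs, and HOXB9 had 5.25, 4.96 and 4.99, a difference of -0.02 ± 0.09. HOXB13 differed by 0.12 ± 0.19 and HOXA2 by 0.05 ± 0.09. The remaining HOXB genes differed by 0.08 (HOXB6), 0.05 (HOXB8), 0.01 (HOXB2), -0.02 (HOXB1) and -0.10 (HOXB5). In the HOXC cluster, HOXC12 differed by 0.12, HOXC8 by -0.06 and HOXC9 by -0.11, and in the HOXD cluster HOXD1 differed by 0.07 and HOXD12 by -0.01. A total of 7 members were higher in all 3 pairs and 3 were lower, against 20.0% and 9.74% of all clusters. By cluster, the median difference was 0.03 for the 8 HOXB members, -0.01 for the 9 HOXC members and 0.07 for the 7 HOXD members.

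**Figure D2:**
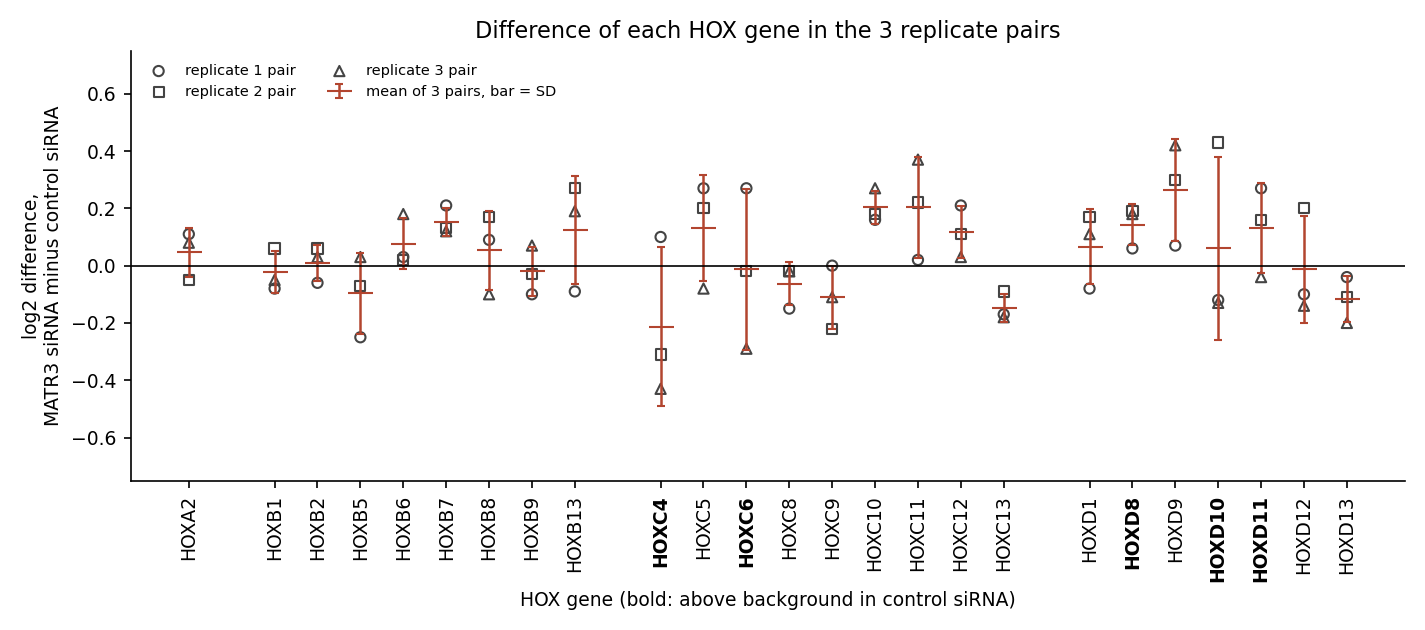
Log2 difference, MATR3 siRNA minus control siRNA (vertical axis), of the 25 HOX genes in each of the 3 replicate pairs (open markers), with the mean and SD of the pairs (red) and genes above background in control siRNA in bold. All 25 means lie between -0.21 and 0.26, and most genes have pairs on both sides of 0.

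The exon-level summaries of the same arrays show which pieces of each gene gave signal. A total of 393 probe sets had a single HOX symbol (281 exon and 112 junction probe sets), from 33 HOX genes, and 274 of them belonged to the 25 members. In control siRNA 87 of the 393 (22.1%) stood above the highest background mean, against 45.8% of all probe sets with 1 symbol. Among the members, 73 of 274 (26.6%) did. The share was 30 of 50 (60.0%) for the 5 genes above background at gene level and 43 of 224 (19.2%) for the other 20 members. For the 8 HOX genes without a gene-level member, all of the HOXA cluster, it was 14 of 119 (11.8%).

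HOXC6 had all 4 of its probe sets above background, HOXD10 6 of 7, HOXC4 4 of 5, HOXD11 9 of 16 and HOXD8 7 of 18. Of the genes below the threshold at gene level, HOXD13 had 3 of 5, HOXC5 2 of 4, HOXC10 8 of 20 and HOXC13 2 of 5. HOXA2, HOXB1, HOXB13 and HOXC11 had none. In some genes a few bright probe sets stood among dim ones. The brightest of the 10 HOXB7 probe sets had a control mean of 16.2 while the median of the 10 was 5.76, and that of the 24 HOXB2 probe sets had 13.5 with a median of 5.10. The 2 HOXC13 exon probe sets above background had 13.8 and 13.3, and its 3 others lay between 2.56 and 3.95. Whether these bright probe sets measured RNA of the named gene was not tested.

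**Figure D3:**
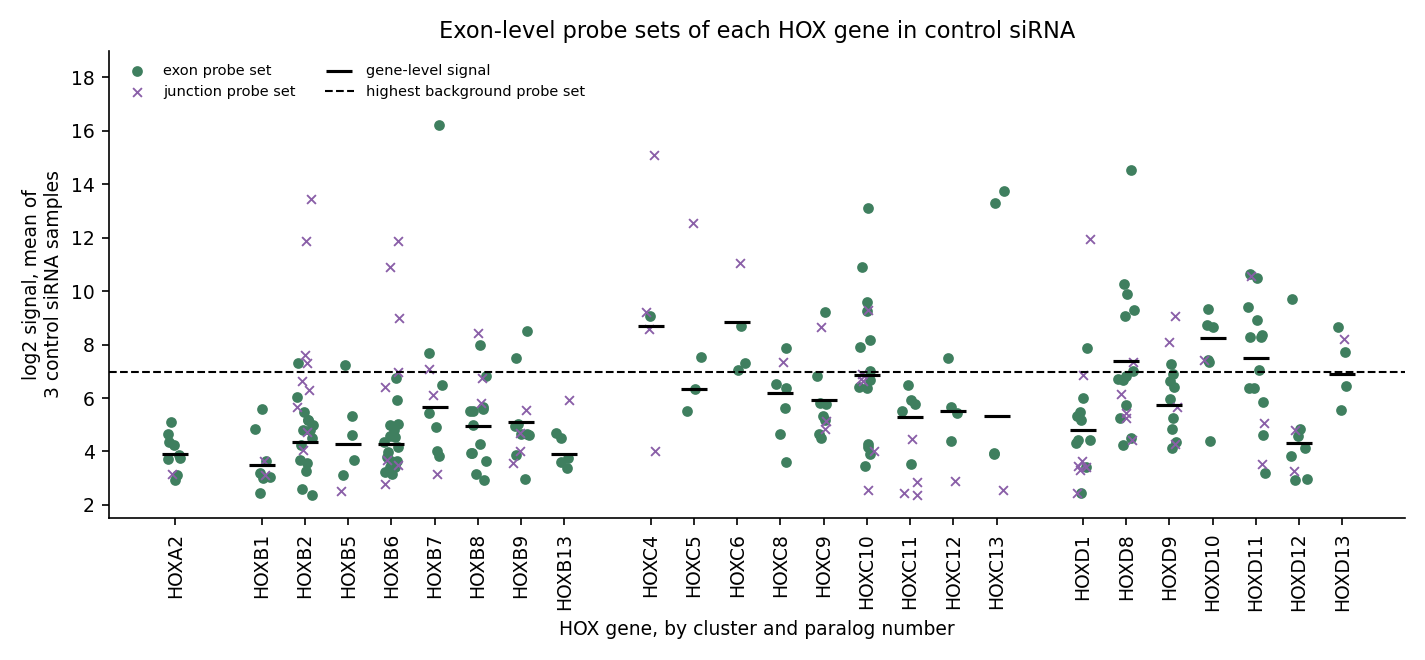
Control siRNA mean log2 signal (vertical axis) of the 274 exon (green circles) and junction (purple crosses) probe sets of the 25 HOX genes, with the gene-level signal as a black bar and the highest background probe set (6.96) as a dashed line (points are spread sideways at random). Signal is spread over most probe sets in HOXC4, HOXC6 and HOXD10, and sits in few of the probe sets in HOXB7 (3 of 10), HOXB2 (5 of 24) and HOXC13 (2 of 5).

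No HOX probe set passed the test after MATR3 siRNA. Of 456623 probe sets tested at exon level, limma called 0 (0.0%), also with a replicate block and with the block for replicate 1, and the 133 HOX probe sets among them had a smallest adjusted p of 0.935 without block and 0.223 with replicate 1 as a block. At an unadjusted p below 0.05 there were 11 of the 133 HOX probe sets (8.27%) without block and 20 (15.0%) with replicate 1 as a block, against 3.68% and 11.9% of all probe sets tested. Probe sets of a gene share its transcripts and are not independent. Groups did not overlap for 19 of 393 HOX probe sets higher and 12 lower, together 7.89%, against 5.0% higher and 2.61% lower, together 7.61%, of all probe sets. The HOX share was near that of the whole array.

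Among the 87 HOX probe sets above background, 5 were higher and 6 lower with groups that did not overlap, together 12.6%. Over all probe sets above background the shares were 5.46% higher and 3.09% lower, together 8.54%. This class was set by the control mean alone, so probe sets that rose from below the threshold were left out. Among those left out were a HOXA13 junction (control mean 6.56, difference 2.42 ± 0.61) and a HOXA10 junction (6.33, 5.16 ± 3.50), both without overlap. Over all 393 HOX probe sets, 19 were higher and 12 lower. The 6 lower HOX probe sets above background included both bright HOXC13 exon probe sets. The brighter of them had 13.20, 12.69 and 12.70 in MATR3 siRNA against 13.69, 13.69 and 13.89 in control siRNA, a difference of -0.89 ± 0.36, and the other had 12.90, 12.73 and 12.82 against 13.30, 13.21 and 13.43, a difference of -0.50 ± 0.11. In both, every MATR3 siRNA sample was below every control, as for HOXC13 at gene level. In HOXD8, an exon probe set just above the threshold had 7.43, 7.74 and 7.73 against 6.89, 6.98 and 7.12 (0.64 ± 0.11), and a junction probe set had 7.94, 8.28 and 7.69 against 7.14, 7.48 and 7.45 (0.61 ± 0.32). The brightest HOXD8 exon probe set, with a control mean of 14.5, differed by 0.08 ± 0.16. Of the 7 HOXD8 probe sets above background 6 differed by more than 0 and 1 by less, with a median of 0.25 and a range from -0.34 to 0.64.

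The other 7 were a HOXC6 junction (0.89), a HOXB7 junction (0.95), a HOXD13 junction (0.45), a HOXB2 junction (-0.76), a HOXC8 junction (-1.11), a HOXB6 junction (-1.24) and an exon probe set of HOXA10 (-0.62). All 4 HOXC4 probe sets above background had differences below 0, from -0.10 to -1.35, with overlapping groups in each. HOXC10 had 7 of 8 probe sets above background with differences above 0, from -0.02 to 0.52 over the 8, again with overlapping groups. HOXD11 had 6 of 9 above 0, from -0.22 to 0.43. HOXC6 had 3 of 4 above 0, from -0.51 to 0.89, around a gene-level difference of -0.01.

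**Figure D4:**
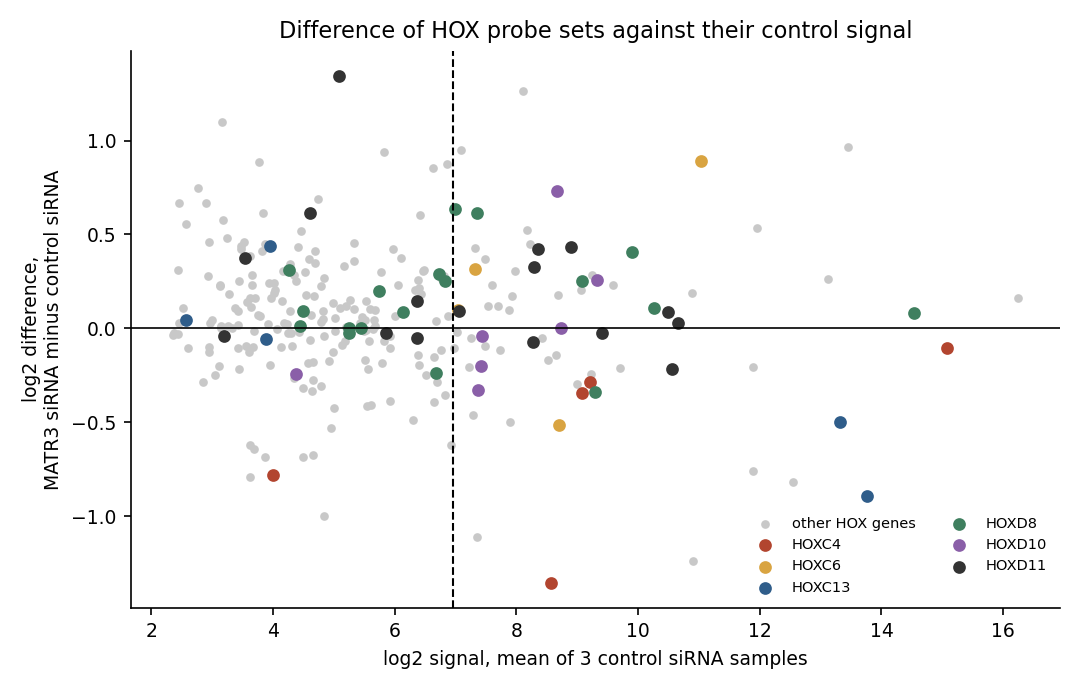
Log2 difference, MATR3 siRNA minus control siRNA (vertical axis), of the 274 probe sets of the HOX members against their control siRNA mean (horizontal axis), as means of 3 pairs, with 6 genes in colour, the others in grey and the highest background probe set as a dashed line. The 2 HOXC13 probe sets at the right lie at -0.89 and -0.50, and of the probe sets above background 6 of 7 lie above 0 for HOXD8, 2 of 6 for HOXD10 and 6 of 9 for HOXD11.

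The clusters also hold noncoding transcripts, antisense RNAs and microRNAs, with the EVX genes at their ends. The array measured 21 of 27 such transcripts and 7 reached the filter. HAGLR, a long noncoding RNA of the HOXD cluster, was the only one above background, with 7.98, 7.40 and 7.49 in MATR3 siRNA against 7.77, 7.25 and 7.17 in control siRNA, a difference of 0.23 ± 0.09 that did not pass the test (adjusted p = 0.0833 in the limma model of clusters with 1 symbol with replicate 1 as a block). HOTAIR, the HOXC noncoding RNA known for acting on the HOXD cluster, had 6.61, 6.05 and 5.96 against 6.61, 6.14 and 6.18. No member of this list was called in that model, which called 3.48% of all clusters tested, or in the model without block.

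The microRNAs of the miR-196 family sit in the HOX clusters and are known to target HOX messages, HOXB8 foremost. Their mature sequences from RefSeq (GRCh38.p14) are shown with the seed, bases 2 to 8, in capitals, because the seed is what family members share, with miR-615 from within the HOXC cluster as a member of another seed group.
hsa-miR-196a-5p, MIR196A1 (chromosome 17) and MIR196A2 (chromosome 12): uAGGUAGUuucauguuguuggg
hsa-miR-196b-5p, MIR196B (chromosome 7): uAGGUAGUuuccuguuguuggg
hsa-miR-615-3p, MIR615 (chromosome 12): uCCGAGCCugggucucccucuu

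Counted from 1 at the 5′ end, miR-196b-5p differs from miR-196a-5p by A12C, outside the seed. The values below are those of each microRNA gene's cluster, which does not separate precursor from mature strand. MIR196A1 had 6.72, 6.43 and 6.80 in MATR3 siRNA against 6.35, 6.38 and 6.42 in control siRNA, a difference of 0.27 ± 0.19 with groups that did not overlap and with a signal below the highest background mean. MIR196A2 differed by 0.68 ± 0.56 and MIR615 by 0.46 ± 0.48, both below background in control siRNA. MIR196A2 did not pass the test, and MIR615 did not reach the filter and was not tested. HOXB8, the known target, differed by 0.05 ± 0.14, also below background.

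Genes that flank the clusters and do not belong to the family stood above background in 8 of 13 measured cases, of 15 in the list. TAX1BP1, beyond the HOXA cluster, differed by 0.09 ± 0.07 and MTX2, beyond the HOXD cluster, by 0.08 ± 0.05. SNX10, a sorting nexin gene beyond the other end of the HOXA cluster, fell by 0.33 ± 0.04 in the limma model of clusters with 1 symbol with replicate 1 as a block (adjusted p = 0.0355), from 7.15, 6.51 and 6.47 to 6.77, 6.20 and 6.17, with a control mean under the highest background. Its adjusted p was 0.0403 after quantile normalization and 0.0541 after median centring of each array. With the replicate block in place of that for replicate 1 it was 0.0884. It was the only one of the 10 tested flanking genes called, in a model that called 3.48% of all clusters tested. Without block SNX10 was not called.

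The TALE partners of HOX proteins stood above background in 6 of 8 measured cases. MEIS1, a HOX partner known to be amplified in some neuroblastoma cells, rose in that blocked model from 8.52, 8.29 and 8.20 in control siRNA to 8.95, 8.68 and 8.57 in MATR3 siRNA, by 0.40 ± 0.03 (adjusted p = 0.0332, limma). Its adjusted p was 0.0566 after quantile normalization and 0.143 after median centring, and 0.0703 with the replicate block at the deposited scaling, so none of these kept the call. MEIS2 differed by 0.03 ± 0.11, and PBX3 by 0.24 ± 0.05 (adjusted p = 0.0587). MEIS1 was the only called gene of the 7 tested, against 3.48% of all clusters tested in that blocked model. Without block MEIS1 was not called.

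Polycomb genes, which hold HOX clusters silent, stood above background in 22 of 23 measured cases, and 0 of 23 were called. RBBP4, a histone-binding subunit, differed by 0.13 ± 0.04 and SUZ12, a core subunit of PRC2, by 0.01 ± 0.05. The catalytic subunit EZH2 differed by -0.02 ± 0.04. Trithorax, H3K27 demethylase, insulator and cohesin genes stood above background in 18 of 18 cases. DOT1L, the H3K79 methyltransferase, was the only one of the 18 called, in the blocked limma model of clusters with 1 symbol. That model called 3.48% of all clusters tested. DOT1L rose by 0.27 ± 0.03 (adjusted p = 0.0495). Its adjusted p was 0.101 after quantile normalization, 0.306 after median centring and 0.111 with the replicate block. Without block DOT1L was not called. SMC1A and SMC3, cohesin subunits, differed by 0.02 ± 0.08 and 0.16 ± 0.09.

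Of 21 measured genes of retinoic acid signalling and other upstream HOX regulators, 7 stood above background, and 0 of the 13 tested were called. STRA6, the retinol uptake receptor, had a difference of -0.22 ± 0.11, and GMNN (geminin) one of -0.02 ± 0.01. ALDH1A3, a retinaldehyde dehydrogenase that makes retinoic acid, had 7.96, 7.28 and 7.38 against 8.14, 7.71 and 7.70, a difference of -0.31 ± 0.13 (adjusted p = 0.0603 in the blocked limma model).

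Markers moved beside these genes, by the same blocked model. It called 3.48% of the 15209 clusters tested, 316 higher and 214 lower. In the sympathoadrenal list 2 of 9 tested genes were called lower, both enzymes of catecholamine synthesis. DBH fell by 0.84 ± 0.21 (adjusted p = 0.0199, limma) and DDC by 0.63 ± 0.11 (adjusted p = 0.0199). Both kept the call after quantile normalization (adjusted p = 0.0172 and 0.0236) and after median centring (0.0209 and 0.0189). TH, another enzyme of that synthesis, was below background (control mean 4.66), was not tested and differed by 0.20 ± 0.22. Of the 10 measured markers, 3 differed by more than 0. ISL1, a sympathetic transcription factor, rose by 0.54 ± 0.19 (adjusted p = 0.0385, 0.0457 after quantile normalization and 0.0955 after median centring). In the fibroblast or mesenchyme list 1 of 6 tested genes was called, LUM, a matrix proteoglycan. It rose by 0.67 ± 0.18 (adjusted p = 0.0224, 0.0331 after quantile normalization and 0.0504 after median centring). Its signals went from 5.90, 5.97 and 5.81 to 6.68, 6.43 and 6.59, under the highest background mean. DCN, another matrix proteoglycan, differed by 0.33 ± 0.15 without reaching the filter. The 3 members above background did not rise with them. PDGFRA differed by -0.31 ± 0.14 (lower in 3 of 3 pairs), PDGFRB by 0.00 ± 0.07 and TWIST1 by 0.09 ± 0.13. Of the 7 measured, 5 differed by more than 0. With the replicate block over the same clusters, DBH and DDC had an adjusted p of 0.0620, LUM 0.0650 and ISL1 0.0856. Without block none of these genes was called, in a model that called 0 of 33782 clusters. With replicate 1 as a block over all 33782 tested clusters, 1 cluster was called. The log2 of the summed signal of the 10 sympathoadrenal markers ran from 16.7 to 16.9 in MATR3 siRNA and from 17.3 to 17.5 in control siRNA. That sum is mostly DBH, with means of 16.2 and 17.0, so it does not describe the list as a whole. The next brightest, GATA3, had means of 14.2 in MATR3 siRNA and 14.0 in control siRNA. The log2 sum of the 7 fibroblast or mesenchyme markers ran from 11.5 to 12.7 and from 11.5 to 12.6. The part of these markers in the HOX values was not tested.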

How the data were processed

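Total RNA was measured in 3 MATR3 siRNA and 3 control siRNA samples. The deposited values are log2 signals made by the authors, per the submitters' processing notes with Affymetrix Expression Console and RMA. Their versions, order and genome build are not given in the sources used here. Both levels summarise the same arrays, and nothing was rescaled before the tests. Symbols came from the platform annotation, updated through RefSeq gene tables. Of 67528 clusters, 23781 had 1 symbol, 1543 several and 42204 none.

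Tests used limma 3.58.1 in R 4.3.3 (lmFit and eBayes, two-sided, Benjamini-Hochberg threshold 0.05) over clusters or probe sets at or above the median mean, with no block in the fixed design. They were also run on simulated data that held the offset of replicate 1 and changes larger than any HOX gene-level difference here. That run does not show what they recover at the size of these differences. Alternatives changed the block, the clusters tested, the filter, the scaling, the array weights and the replicates. Replicate numbers are shared by the groups and were taken to pair the samples. Deviations from the group means correlated at 0.696, 0.327 and 0.527 between same-numbered samples. The offset of replicate 1, common to both groups, adds to these values, so they cannot show that replicates 2 and 3 pair by number. MATR3 siRNA replicate 3 correlated at 0.9914 with control siRNA replicate 2 and at 0.9911 with control siRNA replicate 3. MATR3 siRNA replicate 2 correlated at 0.9895 with either. Pair SDs and pair counts rest on the numbering. Replicate 1 as a block is a grouping seen in the values, and the labels name no batch for it. The labels do not say that replicates were separate cultures, so a p-value here covers sample-to-sample spread that could be technical, and precision is set by how few arrays there were.

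The HOX members, the lists (HOX cluster noncoding transcripts, flanking genes, TALE, Polycomb, Trithorax, retinoic acid and cell type markers) and the settings were chosen with earlier results of these data known. Named genes were all members, called list members, or the 2 brightest of a list. HOTAIR, MIR196A2, MIR615, EZH2, ALDH1A3, PDGFRB, DCN, TH and the single probe sets were chosen after their values were seen. Figures were drawn with matplotlib 3.10.9.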

Additional observations from a re-analysis of the deposited data

How the results depend on the processing

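Without block 0 clusters were called, with a replicate block 0, with replicate 1 as a block 1, after quantile normalization 1, and with array weights 3194. Over clusters with 1 symbol the replicate block gave 8 and the block for replicate 1 gave 530, or 385 with quantile normalization and 205 with median centring, both added after seeing the data. Leaving out 1 sample gave 0 clusters without block. With 1 symbol and the block for replicate 1, it gave 21 without MATR3 siRNA replicate 2 and 0 without any other sample. HOX genes called were 0 in each of these, the replicate block included, except 1 (HOXD9) with array weights. The replicate block moved no other HOX call. HOX probe sets called were 0 throughout.

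The median HOX difference was -0.0197 after quantile normalization and -0.0233 after median centring, where all clusters had 0 and -0.01, and -0.10 to 0.16 with 1 sample left out. With 1 sample left out, HOXC4 ran from -0.603 to 0.0267, HOXC6 from -0.358 to 0.222, HOXD8 from -0.00833 to 0.337, HOXD10 from -0.258 to 0.468 and HOXD11 from -0.0717 to 0.262. With 1 symbol and replicate 1 as a block, HOXC6 ran from -0.155 to 0.0986, with 0.0214 and 0.0329 without control siRNA replicates 2 and 3. HOXD10 ran from -0.0657 to 0.15, with -0.0257 without MATR3 siRNA replicate 2. HOXD10 was -0.0167 after median centring. With array weights HOXC4 differed by -0.386 (adjusted p = 0.0823, limma), HOXC6 by -0.163, HOXD8 by 0.207, HOXD10 by 0.210 and HOXD11 by 0.115. None was called.

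Members above background were 3 against each array's own highest background, 7 against the second highest mean, 17 against the 75th percentile of background (4.93) and 17 against the median of all clusters. They were 4 without control siRNA replicate 2 (HOXD8 lost) and 7 without control siRNA replicate 1 (HOXC10 and HOXD13 gained). At the 75th percentile, 50.1% of HOX probe sets stood above background, a threshold added after seeing the data. The cause of these shifts was not tested.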
